A study of Mus musculus with 4 samples.

Results

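The genes described here are the writers and erasers of DNA methylation in primary mouse microglia. They are the DNA methyltransferases Dnmt1, Dnmt3a and Dnmt3b, the Dnmt1 partner Uhrf1, and the ten-eleven translocation (TET) dioxygenases Tet1, Tet2 and Tet3. They were chosen by gene name, though with earlier results of these libraries known. They make up 7 of the 54532 Ensembl genes in the count tables. Tests covered 13811 genes, those that code for protein and had 10 or more counts over the 4 libraries, and all 7 were among them. Poly-A RNA came from microglia that had received epigallocatechin gallate (EGCG, a green tea flavan-3-ol) at 1 µM for 24 h, or the DMSO Vehicle, in 2 libraries per group, labelled biological replicates 1 and 2. EGCG is a reported inhibitor of DNA methyltransferase activity, and the question asked of these libraries was whether the mRNAs of the methylation machinery differed after treatment. Methylation of DNA and activity of the enzymes were not measured in these samples.

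Every culture was prepared from male CD1 pups, 1 to 3 days old, of an outbred wild-type strain, with no transgene or deletion in either group. Microglia were grown in mixed glial cultures with GM-CSF, a myeloid growth factor, and freed of astrocytes by trypsin. They were then kept in serum-free medium with IL-34, TGFβ2, GM-CSF and cholesterol, before and during the treatment. Growth in culture with these factors limits the cells as a model of microglia in the brain, and how many animals went into a culture was not stated.

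DNA methylation in mammals is placed mostly on cytosines that are followed by guanine (CpG sites). De novo methyltransferases, Dnmt3a and Dnmt3b, add the mark to unmethylated DNA. Dnmt1 copies it onto the new strand after replication, where Uhrf1 binds hemimethylated sites and recruits it. The TET enzymes oxidise methylated cytosine to hydroxymethylcytosine and further forms, which base excision repair can replace with cytosine. In macrophages and related blood cells Dnmt3a and Tet2 are best known as genes that are recurrently mutated in clonal haematopoiesis.

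The promoters of the genes are shown because CpG sites are where this machinery mostly acts. The number of sites in a window does not tell whether they were methylated, which was not measured. RefSeq promoter windows of build GRCm38.p6 were found for all 7 genes, taking the 250 bases before the start that lay nearest the principal GENCODE start. For Tet1 and Tet3 that window lay 11794 and 14714 bases from the principal start, so their counts describe another start of the same gene. The 7 windows held 7 to 51 CpG sites (median 17), where the median of all 32851 windows was 6 and 92.1% held at least 1. Dnmt1 had the fewest, 7, on chr9:20952980-20953229 (minus strand), which was more than in 53.7% of all windows. Dnmt3a held 40 on chr12:3806910-3807159 (plus strand), more than 98.7% of windows. Tet2 held 51 on chr3:133544391-133544640 (minus strand), more than 99.9% of windows. The windows of these 3 genes follow, 5′ to 3′ in the direction of transcription, with each CpG in capitals. With them stands Dazl on chr17:50293621-50293870 (minus strand, 20 CpG), an RNA-binding protein of germ cells whose promoter is methylated in somatic tissue. Dazl was picked as an example after its counts had been seen.
Dnmt1: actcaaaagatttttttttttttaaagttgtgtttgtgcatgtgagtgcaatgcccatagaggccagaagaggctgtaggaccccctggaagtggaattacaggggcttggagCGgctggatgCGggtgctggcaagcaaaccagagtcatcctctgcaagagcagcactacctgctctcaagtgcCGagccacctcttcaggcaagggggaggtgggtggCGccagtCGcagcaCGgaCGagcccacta
Dnmt3a: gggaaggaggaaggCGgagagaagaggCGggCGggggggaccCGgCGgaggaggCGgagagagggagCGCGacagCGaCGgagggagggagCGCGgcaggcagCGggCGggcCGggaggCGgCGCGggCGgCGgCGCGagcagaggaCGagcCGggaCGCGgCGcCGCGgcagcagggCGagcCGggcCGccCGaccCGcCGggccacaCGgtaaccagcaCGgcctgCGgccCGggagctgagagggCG
Tet2: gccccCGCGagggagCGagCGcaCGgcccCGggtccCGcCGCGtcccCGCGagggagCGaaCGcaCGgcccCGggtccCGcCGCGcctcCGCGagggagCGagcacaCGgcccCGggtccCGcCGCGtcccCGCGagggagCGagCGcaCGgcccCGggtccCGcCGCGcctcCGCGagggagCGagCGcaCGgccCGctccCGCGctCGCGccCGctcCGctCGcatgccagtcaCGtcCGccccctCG
Dazl: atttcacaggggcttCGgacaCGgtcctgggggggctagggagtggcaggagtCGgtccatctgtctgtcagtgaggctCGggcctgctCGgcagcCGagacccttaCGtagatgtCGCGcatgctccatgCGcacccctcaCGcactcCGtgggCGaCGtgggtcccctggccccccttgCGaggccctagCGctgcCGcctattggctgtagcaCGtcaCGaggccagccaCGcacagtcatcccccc
The Dnmt1 window held close to the median number of CpG sites over all windows, most of them near the start, whereas those of Dnmt3a and Tet2 carried CpG along their whole length.

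The 4 libraries held 33752397 to 54909854 counts on Ensembl genes, with EGCG replicate 2 the deepest. A count of 3, taken as the lowest that the depth can show, was worth 0.0544 to 0.0936 CPM (reads of a gene divided by its library total, normalised with TMM factors). Microglial identity was clear in every library, since the summed level of 12 microglia markers was 6245 to 10461 CPM, but all 12 differed between the libraries of replicate 1 and those of replicate 2 (8 higher and 4 lower in replicate 2 at an adjusted p under 0.1). EGCG replicate 1 stood apart in stromal genes: Col1a1, a fibrillar collagen chain, had 4 counts there against 1344 to 3962 in the other 3 libraries. Over 11 stromal markers the summed level was 260 CPM in that library and 333 to 716 CPM in the others. The median log2 difference of EGCG minus Vehicle over these 11 was -9.49 in replicate 1 and -0.0014 in replicate 2. Most stromal markers thus lay much lower in EGCG replicate 1 than the sum shows. Astrocyte markers (10 genes) summed to 14.3 to 22.7 CPM, oligodendrocyte lineage markers (10 genes) to 151 to 185 CPM, and neuronal markers (8 genes) to 17.6 to 19.17 CPM in replicate 1 and 1.28 to 1.81 CPM in replicate 2. Endothelial markers (6 genes) summed to 181 to 183 CPM in replicate 1 and 73.1 to 81.4 CPM in replicate 2. At 0 in every library were 1 of the 10 astrocyte markers (Gjb6) and 1 of the 6 endothelial markers (Cldn5), and none of the other 3 lists. Enough counts to be tested were found for 8 of the astrocyte, 8 of the oligodendrocyte lineage, 6 of the neuronal, 11 of the stromal and 4 of the endothelial markers. The part of these other cells in the results that follow was not tested.

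Levels of different genes were compared as CPM per kilobase of the gene length given in the tables. Dnmt3a, on chr12:3806007-3914443, was the most abundant of the 7 with a mean over the 4 libraries of 23.1 CPM per kb, above 85.6% of the genes tested. Dnmt1, on chr9:20907209-20959888, followed with 13.3 CPM per kb. Its range over the 4 libraries, 11.6 to 14.5, overlapped that of Dnmt3a, 14.4 to 34.0, although Dnmt3a was the higher within each library. Tet3, on chr6:83362373-83459084, was the most abundant eraser at 5.68 CPM per kb (5.15 to 6.68), and Tet2, on chr3:133463679-133545139, came next at 2.27 (1.56 to 3.10). Neither range met that of a neighbour.

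Uhrf1, on chr17:56303321-56323486, and Dnmt3b, on chr2:153649450-153687730, were low. Their means were 0.691 and 0.460 CPM per kb, and their ranges of 0.404 to 0.987 and 0.227 to 0.607 overlapped. Uhrf1 stood above 25.3% of the genes tested and Dnmt3b above 22.03%. Tet1, on chr10:62804570-62908996, was close to the detection limit. Replicate 1 gave it 2 counts with Vehicle and 8 with EGCG, and replicate 2 gave 20 and 13. The mean of 0.0177 CPM per kb exceeded that of 2.13% of the genes tested. These microglia thus carried chiefly Dnmt3a and Dnmt1 mRNA among the writers and Tet3 and Tet2 among the erasers.

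**Figure D1:**
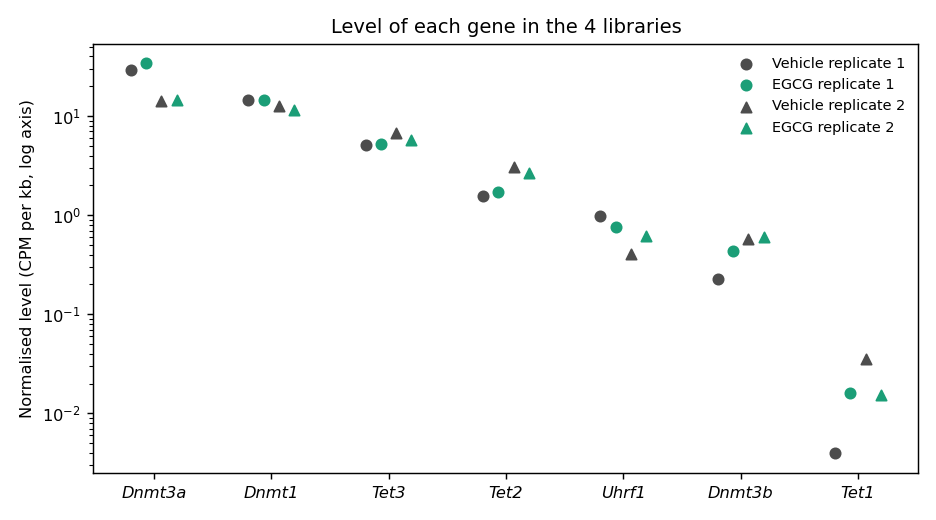
Level of each gene in the 4 libraries, in CPM per kb on a log axis, ordered by mean; grey marks Vehicle and green EGCG, circles replicate 1 and triangles replicate 2. Dnmt3a reaches 34.0 CPM per kb and Tet1 stays at or below 0.0353. In 6 of the 7 genes, all but Tet1, the circles separate from the triangles whatever the colour.

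Ratios within a library remove library size from this picture. Per kb, Dnmt3a mRNA was 18.8 and 19.8 times that of Tet2 in the Vehicle and EGCG libraries of replicate 1. In replicate 2 the same ratio was 4.64 and 5.44. Dnmt3a over Dnmt1 was 2.03 and 2.34 in replicate 1 and 1.14 and 1.26 in replicate 2. Within both replicates the ratio of Dnmt3a to Dnmt1 was the higher of the pair in the EGCG library, by less than the gap between replicates. Dnmt1 exceeded its recruiter Uhrf1 14.7-fold with Vehicle and 19.25-fold with EGCG in replicate 1, and 31.2-fold and 18.7-fold in replicate 2. The Uhrf1 paralogue Uhrf2 was 8.12 to 23.6 times as abundant as Uhrf1 per kb.

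No writer or eraser mRNA passed the test for a difference between EGCG and Vehicle. At an unadjusted p under 0.05, edgeR's quasi-likelihood test called 0 of the 7 genes and 16 of the 13811 tested (0.116%). After Benjamini-Hochberg adjustment 0 genes were called at an adjusted p under 0.1 (0%) and the adjusted p was 0.9999 for each of the 7. With the same terms DESeq2 called 1 of all genes at that adjusted threshold and 0 of the 7. The EGCG libraries separated from the Vehicle libraries in 0 of the 7, beside 11.9% of the tested genes. For 6 of the 7, levels did not overlap between replicates, and such a gene cannot also separate by treatment. Nothing is therefore read from this count. The p-values above measure only the spread between the libraries, which may be technical. That spread includes the difference between replicates, so an EGCG difference smaller than it can be missed. With the replicate number as a further term, edgeR called 0 of the 7 and 3.21% of all genes at an unadjusted p under 0.05. Permuting 2 against 2 libraries allows no two-sided p under 0.333. Such a p does not show that the levels were equal, so the 95% interval of each difference is given.

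Among the maintenance genes, Dnmt1 was at 107 CPM with Vehicle and 107 CPM with EGCG in replicate 1, and at 92.9 and 85.2 CPM in replicate 2. The groups overlapped, and the replicates did not. The group means were 99.8 ± 9.87 and 96.2 ± 15.5 CPM (SD, n = 2 each). The fitted log2 difference was -0.05 (SE 0.18, unadjusted p = 0.781 in edgeR), with an interval from 32.04% lower to 36.6% higher after EGCG. Dnmt1 and Tet3 had the narrowest intervals of the 7 genes.

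Uhrf1 was at 4.21 CPM with Vehicle and 3.21 CPM with EGCG in replicate 1, and at 1.72 and 2.63 CPM in replicate 2, from 63 to 145 counts. The EGCG library was the lower in replicate 1 (log2 difference -0.39, 95% counting interval -0.77 to -0.0091) and the higher in replicate 2 (0.61, interval 0.18 to 1.06). Opposite signs in the replicates left a fitted log2 difference of -0.02 (SE 0.55, interval -1.56 to 1.52, unadjusted p = 0.973 in edgeR). Here and below, counting intervals within a replicate cover counting error only, not the spread between cultures.

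Of the de novo enzymes, Dnmt3a was at 490 CPM with Vehicle and 566 CPM with EGCG in replicate 1, and at 239 and 243 CPM in replicate 2. In replicate 1 the EGCG library was higher by 0.21 on the log2 scale (0.18 to 0.24), and in replicate 2 by 0.023 (-0.016 to 0.062). The 4 values fell into pairs by replicate, not by treatment, so the fitted log2 difference of 0.15 had an SE of 0.58 (interval -1.47 to 1.77, unadjusted p = 0.810 in edgeR).

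Dnmt3b was at 1.16 CPM with Vehicle and 2.22 CPM with EGCG in replicate 1, and at 2.92 and 3.10 CPM in replicate 2, from 38 to 171 counts. It was the higher with EGCG in both replicates, by 0.94 (0.35 to 1.54) in replicate 1 and by 0.087 (-0.27 to 0.45) in replicate 2. Only the counting interval of replicate 1 left out 0. The fitted log2 difference was 0.38 (SE 0.59, interval -1.27 to 2.04, unadjusted p = 0.555 in edgeR). Without Vehicle replicate 1 the fitted difference was -0.13, from EGCG libraries of both replicates against Vehicle replicate 2 alone. The catalytically inactive cofactor Dnmt3l, which stimulates de novo methylation in germ cells, had 11 to 17 counts per library.

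Among the erasers, Tet2 was at 26.4 CPM with Vehicle and 29.0 CPM with EGCG in replicate 1, and at 52.3 and 45.3 CPM in replicate 2. Its log2 difference was 0.14 in replicate 1 (0.00048 to 0.27) and -0.21 in replicate 2 (-0.29 to -0.12). The fitted value was -0.08 (SE 0.43, interval -1.29 to 1.13, unadjusted p = 0.859 in edgeR).

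Tet3 was at 86.0 CPM with Vehicle and 86.9 CPM with EGCG in replicate 1, and at 111 and 95.01 CPM in replicate 2, which gave log2 differences of 0.014 (-0.062 to 0.090) in replicate 1 and -0.23 (-0.29 to -0.17) in replicate 2. The fitted log2 difference was -0.12 (SE 0.18, unadjusted p = 0.551 in edgeR), with an interval from 35.3% lower to 31.1% higher after EGCG. Tet1 rested on 2 against 8 counts in replicate 1 and 20 against 13 in replicate 2. Its log2 differences were 2.03 (-0.29 to 5.31) and -1.21 (-2.34 to -0.13), and the fitted interval from -3.55 to 2.90 leaves the direction unset.

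For each of the 7 genes the fitted EGCG difference was smaller in size than the difference between replicates given below. Across all genes tested the median log2 difference for EGCG was 0.01 and the median of its size 0.08, against 0.36 for the size of the difference between replicates. In replicate 2 the EGCG library was the lower for Dnmt1, Tet1, Tet2 and Tet3, with counting intervals below 0, and in replicate 1 the counting intervals of none of these 4 were below 0. Without EGCG replicate 1, the library with 4 counts of Col1a1, or without any other library, 0 of the 7 genes had an unadjusted p under 0.05. The sign of the fitted difference turned for each of the 7 when some library was left out. Such fits hold the replicates in unequal shares in the 2 groups, so their signs can follow the difference between replicates.

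**Figure D2:**
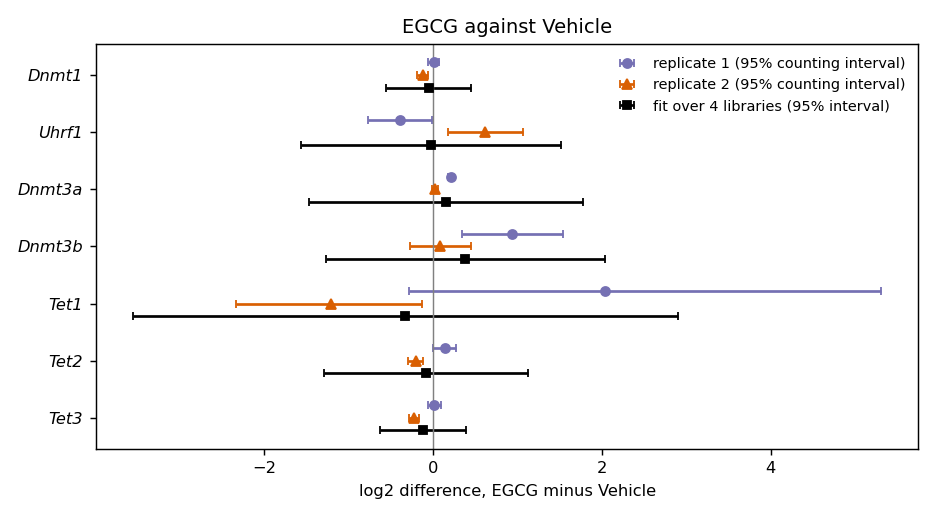
Log2 difference between EGCG and Vehicle for the 7 genes, within replicate 1 and replicate 2 with 95% counting intervals, and from the fit over 4 libraries with its 95% interval; positive values mean higher after EGCG. Every fit interval spans 0, and the replicates lie on opposite sides of 0 for 5 of the 7 genes, all but Dnmt3a and Dnmt3b.

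The libraries of replicate 1 and replicate 2 differed in 6 of the 7 genes. This comparison sets the Vehicle and EGCG libraries of one number against those of the other, and the 2 libraries of a number may share a culture preparation or a sequencing run. Culture and batch cannot be told apart in it, and its p-values speak for these 4 libraries alone. EGCG replicate 2 was the deepest library, and without it 5 of the 7 genes were called and the log2 difference of Dnmt3a was -1.13. In such bulk samples fewer cells of a type and less RNA per cell cannot be told apart either. At an adjusted p under 0.1 edgeR called 7824 genes (56.7% of those tested), 29.1% higher and 27.6% lower in replicate 2, and at an unadjusted p under 0.05 it called 55.5%. The 6 of 7 genes, 3 in each direction, passed both thresholds and have to be read against those shares. Dnmt1, Uhrf1 and Dnmt3a were higher in replicate 1, and Dnmt3b, Tet2 and Tet3 were higher in replicate 2. Levels that did not overlap between replicates were likewise seen in 6 of the 7 and in 76.5% of all genes tested.

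Dnmt3a differed most among the 6. Its 490 and 566 CPM in replicate 1 stood against 239 and 243 CPM in replicate 2, 2.19-fold higher in replicate 1 (log2 difference of replicate 2 minus replicate 1 -1.13, SE 0.08, adjusted p = 4.82e-05 in edgeR). The size of this difference exceeded that of 83.3% of the genes tested. Tet2 went the other way, with 26.4 and 29.0 CPM in replicate 1 and 52.3 and 45.3 CPM in replicate 2. It was 1.76-fold higher in replicate 2 (log2 0.82, SE 0.09, adjusted p = 0.000325 in edgeR).

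Smaller differences were found for the other abundant genes. Dnmt1 was 1.20-fold higher in replicate 1 (log2 -0.27, SE 0.06, adjusted p = 0.00986) and Tet3 was 1.19-fold higher in replicate 2 (log2 0.26, SE 0.08, adjusted p = 0.0357), both in edgeR. Both were under the median size of 0.36 over all genes. Of the low genes, Uhrf1 was 1.69-fold higher in replicate 1 (adjusted p = 0.0509 in edgeR) and Dnmt3b 1.79-fold higher in replicate 2 (adjusted p = 0.0662 in edgeR). Tet1 did not pass (log2 1.29, SE 0.83, adjusted p = 0.241 in edgeR).

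Single libraries decided some of these calls at an unadjusted p under 0.05. Dnmt3b lost it without Vehicle replicate 1 (log2 0.44, unadjusted p = 0.0980), without Vehicle replicate 2 (0.90, unadjusted p = 0.158) and without EGCG replicate 2 (0.81, unadjusted p = 0.189), all in edgeR. Uhrf1 lost it without Vehicle replicate 1 (-0.54, unadjusted p = 0.0779) and without Vehicle replicate 2 (-0.48, unadjusted p = 0.189). Tet3 lost it without Vehicle replicate 2 (0.15, unadjusted p = 0.0596), and Tet1 gained it without EGCG replicate 1 (2.56, unadjusted p = 0.0418). Dnmt3a, Dnmt1 and Tet2 stayed under 0.05 without each of the 4 libraries in turn. As values that moved alongside, the microglia marker sum was the lower in replicate 1. The astrocyte, oligodendrocyte lineage, neuronal and endothelial sums were the higher there, and the stromal sum only with Vehicle. Their part in the differences was not tested.

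**Figure D3:**
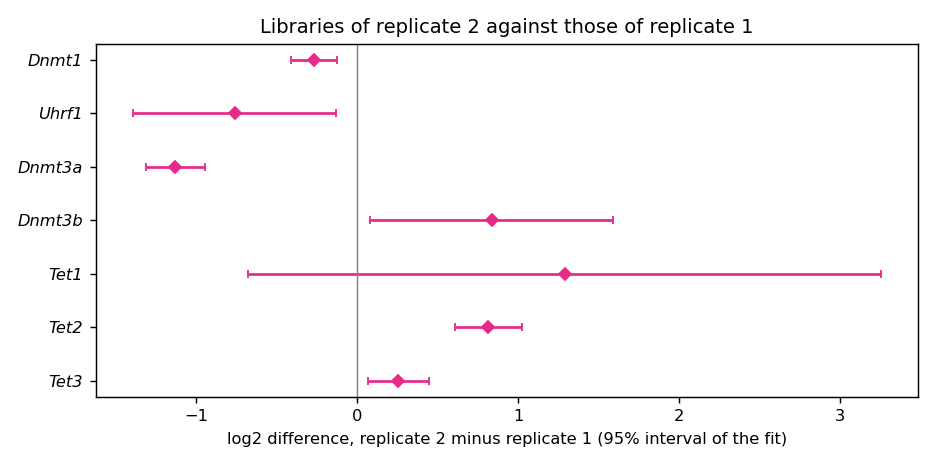
Log2 difference between the 2 libraries of replicate 2 and the 2 of replicate 1 for each gene, with the 95% interval of the edgeR fit; negative values mean higher in replicate 1. Dnmt3a lies at -1.13 and Tet2 at 0.82, and only the interval of Tet1 spans 0.

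The antisense transcript Dnmt3aos lies within Dnmt3a on the opposite strand (chr12:3859293-3862244). Counts were 253 with Vehicle and 296 with EGCG in replicate 1, and 80 and 148 in replicate 2. In a fit over 17967 genes of all classes its log2 difference between EGCG and Vehicle was 0.26 (SE 0.88, unadjusted p = 0.783 in edgeR). It was higher in replicate 1, as Dnmt3a was, with a log2 difference of replicate 2 minus replicate 1 of -1.75 (SE 0.17, adjusted p = 0.000175 in edgeR). The libraries were strand-specific, but whether the counting used the strand was not stated. Its counts were 0.913% to 1.63% of those of Dnmt3a in the same library.

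Other overlapping or near-identical genes were almost silent. Dnmt3bos, antisense at the start of Dnmt3b, had 1 count in EGCG replicate 1 and 0 elsewhere, and so did Dnmt3c, the rodent duplicate of Dnmt3b that acts in male germ cells. The pseudogene Dnmt3a-ps1 was at 0 throughout. At the other end, Gm42567, antisense at Tet2, had at most 1 count and B230319C09Rik, opposite Tet3, at most 8. How reads that match several genes had been treated was not stated.

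Genes with the most similar course over the 4 libraries were sought among 9745 or 9746 tested genes with at least 100 counts in every library. Likeness was the Euclidean distance between log2 CPM values centred on each gene's mean, over 4 libraries that share 2 replicate numbers. Nearest to Dnmt1 were Pcgf3, a Polycomb group RING finger gene (distance 0.012), Ankrd52 (0.020) and Lemd3, an inner nuclear membrane protein (0.024). For Dnmt3a they were Txn1, thioredoxin (0.035), B3gnt2, a glycosyltransferase (0.046), and F9, a coagulation factor (0.049).

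Tet2 was followed most closely by Zfp467, a zinc finger gene (0.023), Wdfy3, an autophagy adaptor (0.030), and Htt, huntingtin (0.047). The neighbours of Uhrf1 lay farther off, with Cd200, an inhibitory ligand of myeloid cells, at 0.206, Tob1, an antiproliferative gene, at 0.247 and Ubtd2 at 0.269. With 4 libraries these distances are a description, and many genes that differ between the replicates come close in this way.

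Genes that work with the 7, or that depend on methylation, were read from 7 lists. The lists were drawn up with earlier results of these libraries known, and they are described by counts and medians only. For EGCG against Vehicle, 0 of the genes tested on any of the 7 lists had an unadjusted p under 0.05 in edgeR or in DESeq2 with treatment as the only term, beside 0.116% of all genes in edgeR. Medians of the log2 difference lay between -0.05 and 0.08 in the 6 lists other than the germline list, with 0.01 over all genes.

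Partners in maintenance and de novo methylation were represented by 13 tested genes of 15 listed. The most abundant per kb were Pcna, the replication clamp that docks Dnmt1 (58.9 CPM per kb), Ehmt2, a histone H3 lysine methyltransferase (34.2), and Trim28, a corepressor that guards imprints (26.2). At an adjusted p under 0.1, 4 of the 13 were higher and 3 lower in replicate 2, a share near the 56.7% called over all genes, with a median log2 difference of 0.07. Pcna was at 152 and 169 CPM in replicate 1 and 118 and 127 CPM in replicate 2, a log2 difference of -0.39 (SE 0.07, adjusted p = 0.00303 in edgeR). Like Dnmt1, it was the lower in replicate 2 in both groups.

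All 10 readers of methylated DNA were tested. Mbd3 (40.1 CPM per kb), a subunit of the NuRD complex, Mbd2 (35.3), which binds methylated CpG, and Mbd6 (14.4) led them. In replicate 2, 5 were higher and 1 lower at an adjusted p under 0.1, in all near the 56.7% called over all genes, with a median of 0.17. Mbd3 was the lower there (log2 -0.38, SE 0.06, adjusted p = 0.00175 in edgeR). For EGCG the 10 lay close to 0, with a median of -0.02.

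TET partners and base excision repair genes numbered 15 tested of 17. Ogt, the O-GlcNAc transferase that binds TET proteins (35.0 CPM per kb), Apex1, the abasic site endonuclease (24.3), and Gadd45a, a stress-induced gene linked to demethylation (19.4), were the most abundant. In replicate 2, 7 were higher and 6 lower at an adjusted p under 0.1, beside 29.1% and 27.6% of all genes. Apex1 had 45.0 and 44.3 CPM in replicate 1 and 23.9 and 25.3 CPM in replicate 2 (log2 -0.86, SE 0.06, adjusted p = 5.06e-05 in edgeR), and Gadd45a was lower there as well (log2 -0.83, SE 0.07, adjusted p = 9.09e-05 in edgeR). Ogt differed little (log2 -0.16, SE 0.06, adjusted p = 0.0776 in edgeR).

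The methyl donor and TET cosubstrate list covers the synthesis of S-adenosylmethionine and of alpha-ketoglutarate and the enzymes that use them, with 28 tested of 30. Sdhb (56.3 CPM per kb), Idh1 (54.4) and Sdha (53.7) led it. Idh1 makes alpha-ketoglutarate, and the Sdh genes encode the succinate dehydrogenase complex that removes succinate, an inhibitor of TET enzymes. In replicate 2, 6 genes were higher and 11 lower at an adjusted p under 0.1, in all near the 56.7% called over all genes, with a median of -0.03. Idh1 was lower there (log2 -0.52, SE 0.05, adjusted p = 0.000196 in edgeR) and so was Sdha (log2 -0.40, SE 0.05, adjusted p = 0.000955 in edgeR).

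The germline list holds genes whose promoters are methylated in somatic cells. Of 34 listed, 11 were at 0 in all 4 libraries, and 19, those 11 included, had no more than 3 counts in any library. The others had more, and 14 had enough counts to be tested, and since a gene could pass through the libraries where it was high, nothing is read from their median. Dazl, whose CpG-bearing promoter window is printed with those of the writers, had 2 counts in EGCG replicate 1 and in Vehicle replicate 2 and 0 in the other libraries, so no difference was detectable at this depth. The most abundant per kb were Tdrkh (1.35 CPM per kb), Dpep3 (0.985) and Brdt (0.683). Tdrkh was at 5.03 and 4.74 CPM in replicate 1 and at 11.4 and 12.1 CPM in replicate 2. RefSeq windows for 32 of the 34 held 2 to 31 CpG sites, with a median of 14.

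Imprinted genes, whose expression from 1 parental allele depends on methylation, had 25 tested of 35. Gnas (76.2 CPM per kb), a G protein subunit, Impact (32.8), a translation regulator, and Cdkn1c (11.8), a cell cycle inhibitor, were the most abundant. Cdkn1c was at 39.0 and 44.8 CPM in replicate 1 and at 4.34 and 7.70 CPM in replicate 2 (log2 -2.77, SE 0.23, adjusted p = 9.96e-05 in edgeR). Of the 25, 11 were lower in replicate 2 and 2 higher at an adjusted p under 0.1, with a median of -0.60, where 27.6% and 29.1% of all genes were called in those directions. Medians of replicate 2 minus replicate 1 were below 0 for markers of other cells too. They were -0.67 for stromal, -1.15 for endothelial, -1.08 for neuronal, -0.34 for astrocyte and -0.18 for oligodendrocyte lineage genes. The summed stromal markers were lower in replicate 2 with Vehicle (716 to 333 CPM) but higher with EGCG (260 to 344 CPM). The part of these markers was not tested. The count of 11 fell to 5 without Vehicle replicate 2. The imprinted gene Dlk1 had 4 and 1 counts with Vehicle and 16 and 17 with EGCG. Its unadjusted p was 0.0721 in edgeR with treatment as the only term (log2 2.40, SE 0.98). Its log2 difference was 2.03 (counting interval 0.40 to 4.07) in replicate 1 and 3.50 (0.82 to 8.88) in replicate 2. Dlk1 reached the 10 summed counts needed for testing only through its EGCG libraries, so nothing is read from these values.

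S phase and mitosis genes matter here because Dnmt1 and Uhrf1 are cell cycle genes. All 25 were tested, and 17 were lower and 0 higher in replicate 2 at an adjusted p under 0.1, beside 27.6% and 29.1% of all genes, with a median of -0.60. The count was 9 without Vehicle replicate 2 and 11 without EGCG replicate 2. Mki67, the proliferation antigen, was at 20.2 and 20.6 CPM in replicate 1 and at 7.61 and 9.53 CPM in replicate 2 (log2 -1.24, SE 0.12, adjusted p = 0.000210 in edgeR). Top2a, a mitotic topoisomerase, was at 9.48 and 8.21 CPM and at 3.30 and 4.69 CPM (log2 -1.14, SE 0.19, adjusted p = 0.00251 in edgeR). By level per kb, Cdt1 (8.36 CPM per kb) and E2f1 (7.52), both regulators of S phase entry, and Mcm3 (6.71), of the replicative helicase, led the list. Dnmt1 and Uhrf1 were lower in replicate 2 as these genes were, and their association was not tested. Nor was the part of the stromal, endothelial, neuronal, astrocyte and oligodendrocyte lineage markers, whose medians were also below 0. The stromal sum was lower in replicate 2 only with Vehicle. For EGCG the 25 had a median log2 difference of 0.08.

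**Figure D4:**
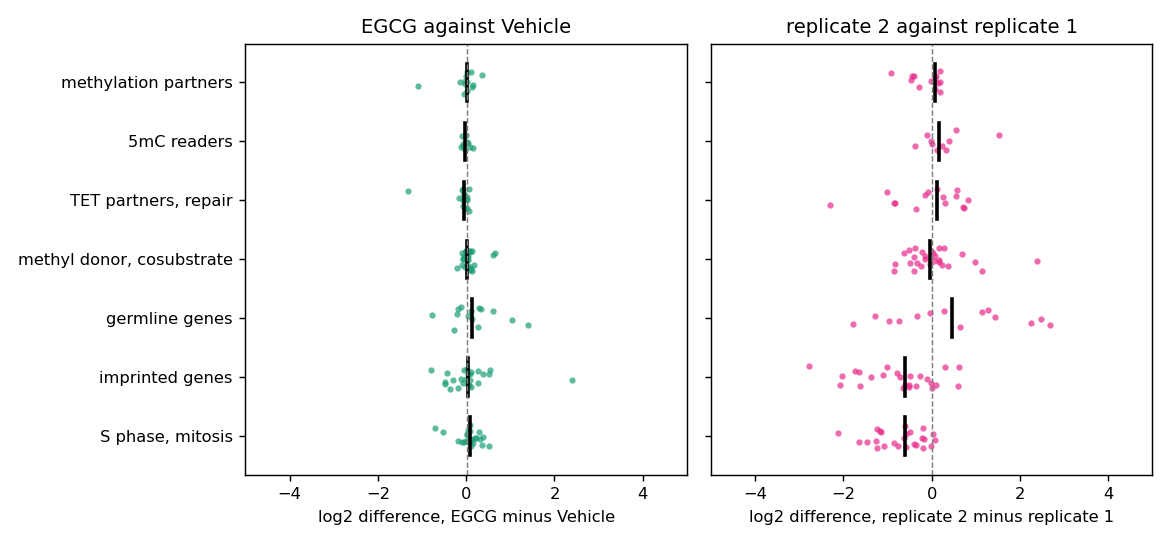
Log2 difference of each tested gene on the 7 lists, left for EGCG against Vehicle and right for replicate 2 against replicate 1. A black bar stands at each list's median, and a dashed line at the median of all genes tested (0.01 on the left, -0.0027 on the right). Apart from the germline list, whose tested genes were selected by the count filter, the medians lie between -0.05 and 0.08 on the left, while on the right those of the imprinted and the S phase and mitosis genes lie at -0.60.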

How the data were processed

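The authors filtered reads for adapters and low quality, aligned them with HISAT2 to GRCm38.p6 and deposited raw read counts per gene, in whole numbers, in 1 table per replicate, each with a column per treatment. The counting program, the annotation release and the treatment of multi-mapping reads are not given in the sources used here, and the last of these can change genes with near-identical copies. Per the labels the libraries were poly-A enriched and directional. Conditions came from the sample titles, and the replicate number of each table's columns from the study's supplementary description. The tables were joined on Ensembl identifiers (54532 genes, 22046 protein-coding). Loci without an Ensembl identifier (697 and 329 in the tables) were not used, and 0 columns of sample values were unmapped. Positions equalled those of mouse GENCODE release 21 for 98.3% of the 54409 identifiers it shares, all 7 genes included.

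Protein-coding genes with at least 10 counts over the 4 libraries (13811) were fitted in R 4.3.3 with edgeR 4.0.16 (TMM factors, quasi-likelihood F test, two-sided, treatment as the only term). Replicate 2 was set against replicate 1 in a second fit with that as the only term. Adjusted p-values are Benjamini-Hochberg over all tested genes. Intervals within a replicate are exact binomial (95%) and cover counting error only, as does the floor of 3 counts. Alternatives were DESeq2 1.42.0, a replicate block, other scalings, filters and gene classes, and leaving out each library. The 7 genes and all lists were chosen with earlier results of these data known. Named genes were the 7, the 3 highest per kb of each list, up to 6 of a list with the smallest unadjusted p under 0.05 with or without the block, the 3 nearest neighbours of Dnmt1, Dnmt3a, Uhrf1 and Tet2, the cell division genes Mki67, Pcna and Top2a, and non-coding genes that overlap the 7. Dazl, Dnmt3l, Dnmt3c, Uhrf2 and single markers were named after their values were seen. Fits were tested on simulated counts with large changes in the fitted contrast only. That test does not cover an EGCG fit beside a difference between replicates. The cytokine, phagocytosis and imaging measurements were not analysed here.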

Additional observations from a re-analysis of the deposited data

How the results depend on the processing

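Under every alternative 0 of the 7 genes passed either threshold for EGCG against Vehicle, with Tet1 untested under filterByExpr and at 10 counts in every library. The count of all genes at an unadjusted p under 0.05, 16, became 444 with the replicate block in edgeR (3.21%), 153 with the block in DESeq2 (1.11%), 6 with the filterByExpr filter, 3 with at least 10 counts in every library and 35 over all gene classes, and 8 to 131 when 1 library was left out (8 without EGCG replicate 1, 57 without Vehicle replicate 2, 131 without EGCG replicate 2). At an adjusted p under 0.1 it was 1 with the block (0.00724%), 7 with the block in DESeq2 (0.0507%) and 1 in DESeq2 without it. Labels do not say that a number marks a shared culture, and there are 2 pairs. The replicate difference in Vehicle correlated with that in EGCG across 13811 genes (r = 0.64), a hint of pairing from the data. The 95% intervals with the block were narrower for Dnmt1 (13.5% lower to 6.41% higher), Tet3 (18.8% lower to 5.72% higher) and Dnmt3a (log2 -0.05 to 0.28). That of Tet1 stayed wide (-3.06 to 3.02). These intervals take a shared number to mark a pair. With the block, edgeR's unadjusted p was 0.131 for Dnmt3a (log2 0.12), 0.162 for Dnmt3b (0.48), 0.199 for Tet3 (-0.11), 0.355 for Dnmt1 (-0.06), 0.657 for Tet2 (-0.04), 0.744 for Uhrf1 (0.10) and 0.990 for Tet1 (-0.02). List genes at an unadjusted p under 0.05 numbered 4 with the block in edgeR, all higher with EGCG, and 1 with the block in DESeq2. The 4 were Pcna (log2 0.12), Sdhb (0.17), Cdkn1c (0.46) and Dlk1 (2.51), with edgeR's adjusted p = 0.995 for each. Of these, Dlk1 passed the count filter only through its EGCG libraries.

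Signs of the EGCG difference turned for all 7 genes under some alternative. When 1 library was left out, the log2 difference ran from -0.23 to 0.072 for Dnmt1, -0.59 to 0.76 for Dnmt3a, -0.13 to 1.18 for Dnmt3b, -0.54 to 0.77 for Uhrf1, -1.16 to 1.92 for Tet1, -0.49 to 0.48 for Tet2 and -0.29 to 0.065 for Tet3. With the block in DESeq2 Uhrf1 was at 0.10 and Tet1 at 0.26. Without Vehicle replicate 1 Uhrf1 was at 0.77, Dnmt1 at 0.05 and Dnmt3b at -0.13; without EGCG replicate 1 Dnmt3a was at -0.59 and Tet2 at 0.20. Without Vehicle replicate 2 Dnmt3a was at -0.30, Tet1 at 1.92, Tet2 at 0.48 and Tet3 at 0.065, and without EGCG replicate 2 Uhrf1 was at 0.09 and Dnmt1 at 0.072. A fit that leaves 1 library in a group assumes that it varies like the other group. Such a fit also holds the 2 replicates in unequal shares, so its sign can follow the difference between replicates. With all 4 libraries and the block, edgeR turned the sign of Uhrf1 alone, to 0.10. In the comparison of replicates the 7 genes gave 3 to 7 calls when 1 library was left out (3 without Vehicle replicate 2), and 6 under all the other alternatives, with Tet1 again untested at 10 counts in every library. The counts of imprinted and of S phase and mitosis genes lower in replicate 2 under each alternative were added after the data had been seen; they ran from 5 to 12 and from 9 to 18. Scaled by total counts alone, Dnmt3a (from 14.5 CPM per kb) no longer overlapped Dnmt1 (up to 14.1), which left 1 overlapping pair of neighbours where there had been 2. The cause of these changes was not tested. Depth limits Tet1 most, with 2 to 20 counts per library.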
